A study of Mus musculus with 13 samples.

Results

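The mitochondrial carriers of solute carrier family 25 (SLC25) were examined in interscapular brown adipose tissue (iBAT) of mice by bulk RNA sequencing. Members were the protein-coding genes whose mouse symbol is Slc25a followed by digits, without Slc25a20 and Slc25a44, which gave 45 of the 42416 gene identifiers counted and 45 of 47 such genes. Every one of the 13 libraries came from mice with homozygous loxP-Axl-loxP alleles, kept at room temperature on HFD (high-fat diet). Tamoxifen was given every 3 weeks to induce the knockout, and the methods do not state whether the Cre- mice received it. The 8 libraries labelled iFAXLKO are Cre+, and the 5 WT libraries are Cre- littermates by the methods of the study. Cre was Adipoq-CreERT2, carried as 1 heterozygous bacterial artificial chromosome transgene, whose promoter is active in adipocytes, so Axl of the other cells of the tissue is not targeted. The age of the mice at dissection is not analysed here.

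Axl, the receptor tyrosine kinase targeted in these mice, served as the check of the labels. It had 28.4, 26.9, 26.3, 33.8 and 23.5 CPM (counts per M counts of the library, with TMM scaling) in WT and a lowest, median and highest value of 26.5, 31.6 and 43.9 CPM in the libraries labelled iFAXLKO. Axl was therefore not lower in the Cre+ libraries; its fitted difference was 0.25 on the log2 scale (SE 0.13, adjusted p = 0.699). The deposited counts do not distinguish adipocyte Axl from that of other cells, and the group is called by its label throughout. Total counts were 22.4 to 32.6 M per library, and 3 counts, the limit that a count of 0 allows, corresponded to 0.092 to 0.134 CPM. The brown adipocyte markers were present in every library, with summed levels of 8202 to 12209 CPM over 11 genes in the libraries labelled iFAXLKO and 10121 to 14691 CPM in WT. The 20 skeletal muscle markers summed to between 111 and 6465 CPM in the former and between 142 and 4501 CPM in the latter, so libraries of both groups held very different amounts of muscle RNA.

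SLC25 proteins are built from repeats of a pair of membrane helices and exchange metabolites, nucleotides, cofactors and ions across the inner mitochondrial membrane. They supply the matrix with ADP, phosphate, respiratory substrates and cofactors, and return ATP, citrate and aspartate to the cytosol. Uncoupling protein 1 (UCP1), which dissipates the proton gradient as heat in brown adipocytes, belongs to the same superfamily. Proteins translated from the GENCODE M21 coding sequences had 265 to 677 residues (median 318), and 26 of the 45 members held 3 copies of the family signature, read as proline, any residue, an acidic residue, any 2 residues and a basic residue. No copy in this strict form was found in Slc25a46, Slc25a51 or Slc25a53.

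The 45 members contributed 0.501% to 0.557% of all counts. Their summed level was 5205 ± 208 CPM (SD, n = 8) in the libraries labelled iFAXLKO and 5474 ± 438 CPM (SD, n = 5) in WT. Levels of different genes were compared only as CPM per kb of exon. On that scale Slc25a5 led with a mean of 254 CPM per kb over the 13 libraries, and others of high level were Slc25a39 (192), Slc25a4 (170.4), Slc25a1 (159), Slc25a51 (106), Slc25a42 (99.5), Slc25a11 (79.6), Slc25a3 (72.2) and Slc25a34 (56.2). Slc25a5 exceeded Slc25a39 in all 13 libraries, and Slc25a39 exceeded Slc25a4 in 12. Slc25a4 exceeded Slc25a1 in 10 libraries and Slc25a51 exceeded Slc25a42 in only 8, so the latter neighbours cannot be ordered beyond their spread. Ucp1, whose symbol lies outside the rule for members, exceeded Slc25a5, the most abundant member, by 9.1 to 18.5 times per kb.

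**Figure D1:**
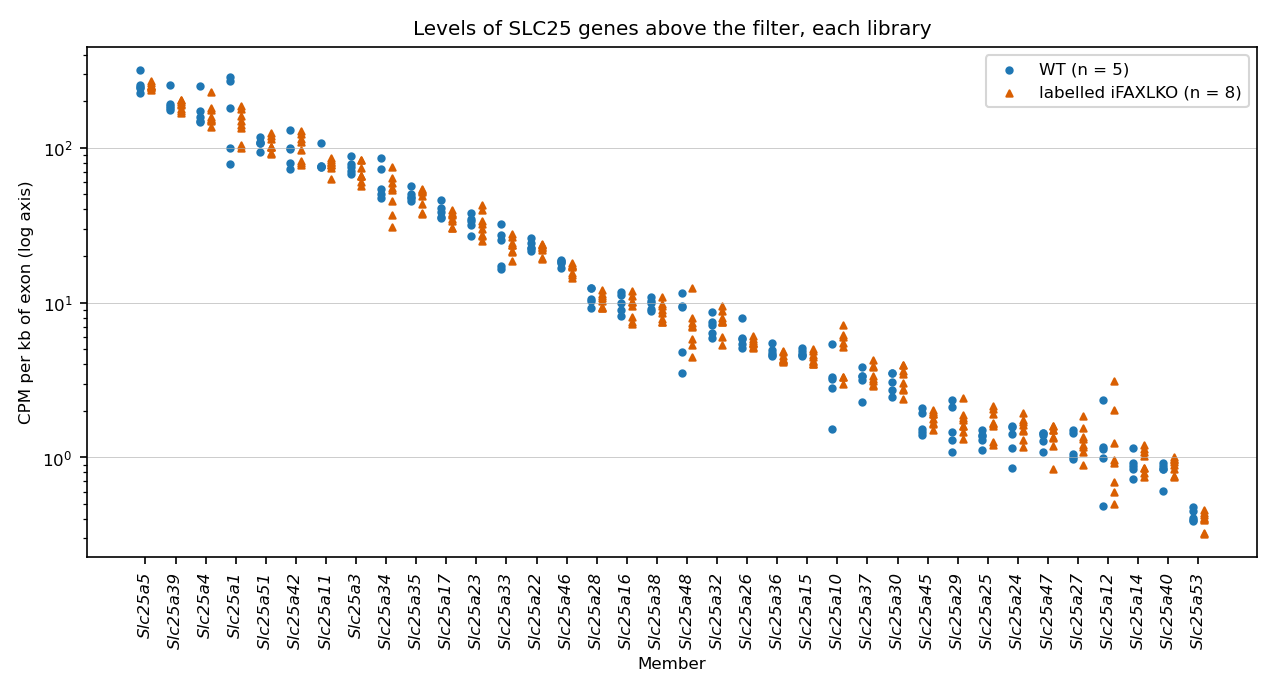
Level of SLC25 genes above the filter in CPM per kb of exon (log axis), ordered by the mean, with 1 point per library (blue circles WT, n = 5; orange triangles labelled iFAXLKO, n = 8). The genes span a 625.2-fold range of means, from 254 CPM per kb for Slc25a5 down to Slc25a53, and the points of both groups overlap for each gene plotted.

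Between the groups, no carrier passed the test. Of the 45 members, 37 had more than 1 CPM in at least 5 libraries and were tested with edgeR's quasi-likelihood test among 13360 genes, and 0 of them had an adjusted p under 0.05, where 0.127% of all genes tested did (17 genes), a share too small to expect any member among 37. At an unadjusted p under 0.05, 1 member was higher in the libraries labelled iFAXLKO and 0 were lower, against 3.84% and 3.54% of all genes tested. DESeq2 also called 0 members, against 67 of all genes tested, and gave 2 at an unadjusted p under 0.05, against 1109. For 0 of the 37 members were the CPM ranges of WT and Cre+ libraries separate, against 0.434% of all genes tested. The median log2 fold change of the members was -0.065, with 14 positive and 23 negative values, and the median of all genes tested was -0.012. Without WT replicate 2 the median was 0.0040, with 19 positive and 18 negative values. That library was the highest of the 13 for 9 of the 37 members.

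The fitted differences were small as well as uncalled. On simulated counts the group test recovered 89 of 98 planted log2 changes of 1 and 29 of 99 of 0.5. An uncalled member may therefore still differ by the latter size. The simulated spread followed the trend over genes of like level, not each member's own spread. Members with a larger standard error, such as Slc25a12 at 0.48, may differ by more. For 30 of the 37 members the log2 fold change was below 0.15 in size, and for 3 members, Slc25a10, Slc25a1 and Slc25a25, it exceeded 0.25. The standard errors ranged from 0.068 for Slc25a36 to 0.48 for Slc25a12, with a median of 0.12. Fibroblast and progenitor markers moved with the groups, with 12 of 12 genes positive (10 at an unadjusted p under 0.05, 0 called) and summed levels of 1659 to 2378 CPM in the libraries labelled iFAXLKO against 1148 to 1754 CPM in WT. All 9 macrophage markers were positive too (8 at an unadjusted p under 0.05, 0 called), with sums of 151 to 298 CPM against 128 to 182 CPM. Of the 11 brown adipocyte markers 9 were negative (1 at an unadjusted p under 0.05, 0 called). The 8 general adipocyte markers did not share that direction, with 4 positive and 4 negative and a median of 0.087. Of these, 2 were higher and 0 lower at an unadjusted p under 0.05. Only Adipoq was called higher (log2 fold change 0.66, SE 0.11, edgeR adjusted p = 0.0118). The Adipoq-CreERT2 artificial chromosome is carried by the Cre+ mice alone, so for Adipoq the transgene and the group cannot be told apart. In bulk tissue, fewer cells of a type and less RNA per cell cannot be told apart. The part of these cell types in the carriers' values was not tested beyond a fit that holds the fibroblast score as a covariate. In that fit the median was -0.012, and 0 members had an unadjusted p under 0.05, against 198 of 13360 genes.

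**Figure D2:**
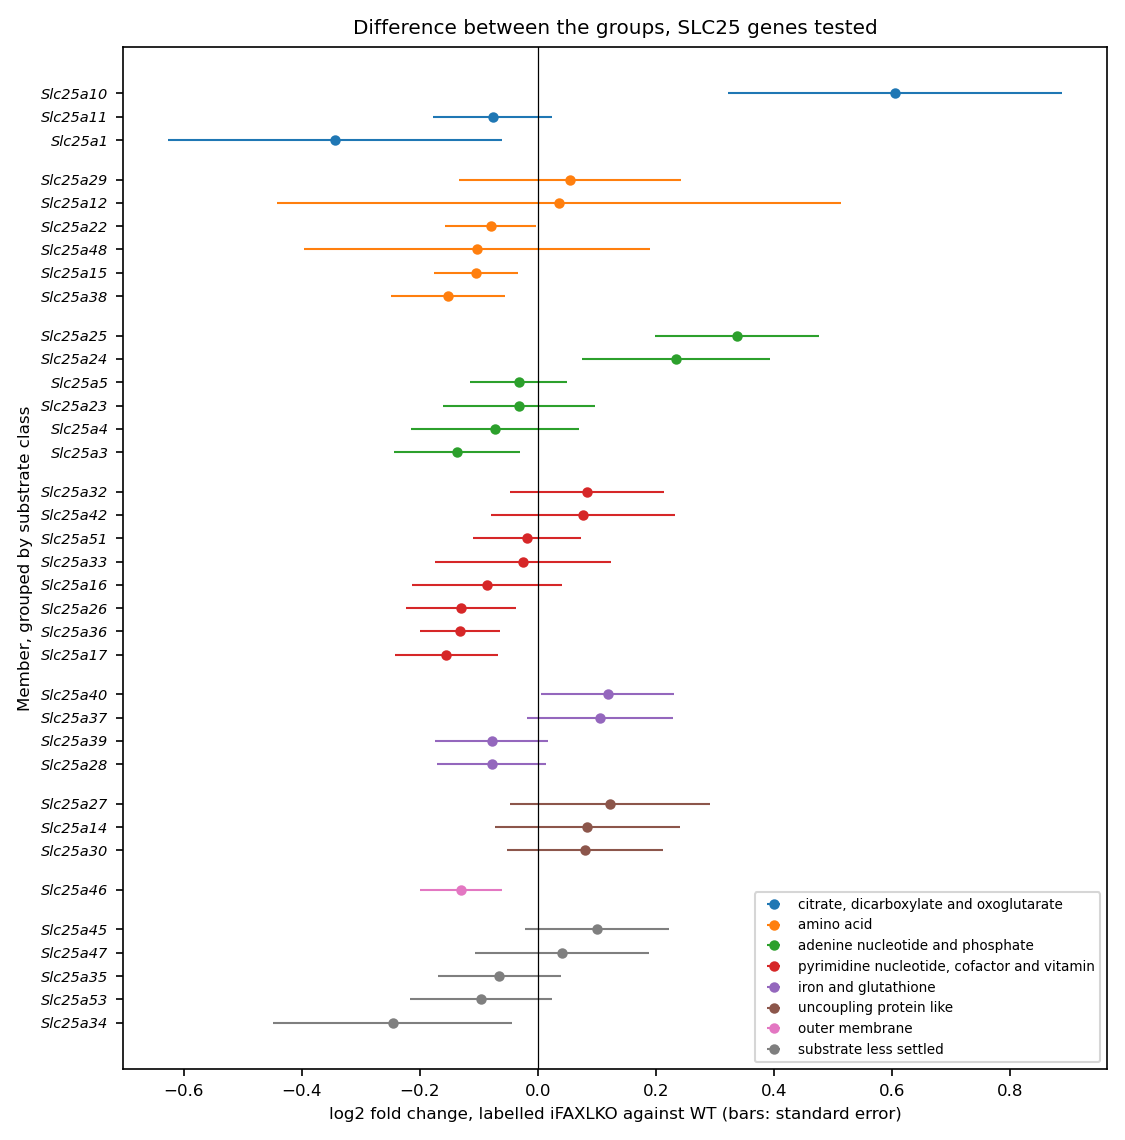
Log2 fold change of the libraries labelled iFAXLKO against WT for SLC25 genes tested, grouped and coloured by substrate class; points are edgeR estimates and bars standard errors. Slc25a10 lies farthest to the right at 0.60 and Slc25a1 farthest to the left at -0.34, and neither passed the test.

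The ADP/ATP carriers Slc25a4 and Slc25a5 and the phosphate carrier Slc25a3 supply the substrates of ATP synthase. Their promoters are shown because these 2 ADP/ATP carriers encode nearly the same protein from different chromosomes. Each sequence runs 5′ to 3′ from 250 bases before to 50 bases after the RefSeq start (GRCm38.p6), and capitals mark matches, on either strand, to the GC box GGGCGG, the ETS motif CCGGAAG, the NRF1 core GCATGCGC, the promoter pentamer CCAAT, the start-proximal motif TATAAA, the E-box CACGTG or the ERR element TCAAGGTCA. The first lies at chr8:46211013-46211312, minus strand, and the second at chrX:36795347-36795646, plus strand.
Slc25a4: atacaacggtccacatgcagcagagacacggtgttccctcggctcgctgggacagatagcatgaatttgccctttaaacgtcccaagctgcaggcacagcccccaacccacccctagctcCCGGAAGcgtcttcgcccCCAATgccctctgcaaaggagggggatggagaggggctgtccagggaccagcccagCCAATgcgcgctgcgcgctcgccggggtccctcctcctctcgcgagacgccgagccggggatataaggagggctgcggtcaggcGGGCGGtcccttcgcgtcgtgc
Slc25a5: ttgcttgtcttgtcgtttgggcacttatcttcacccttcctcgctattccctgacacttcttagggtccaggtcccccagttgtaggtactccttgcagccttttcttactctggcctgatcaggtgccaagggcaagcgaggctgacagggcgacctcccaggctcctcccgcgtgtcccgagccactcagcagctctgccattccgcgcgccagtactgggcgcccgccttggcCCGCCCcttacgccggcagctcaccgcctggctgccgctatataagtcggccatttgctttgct
The Slc25a4 window held an ETS match, a pair of CCAAT matches and a GC box, and the Slc25a5 window a single GC box. No printed match overlapped another.

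Slc25a5 was the steadiest of the abundant carriers. It had 373, 523, 405, 421 and 400.4 CPM in WT and a lowest, median and highest value of 388, 416 and 445 CPM in the libraries labelled iFAXLKO. All of the latter lay inside the WT range (log2 fold change -0.032, SE 0.082, adjusted p = 0.971). Slc25a4, the isoform known from heart and skeletal muscle, had 408, 589, 352, 375 and 343 CPM in WT and 323, 367 and 538 CPM at the lowest, median and highest in the libraries labelled iFAXLKO. The groups overlapped over almost their whole range (log2 fold change -0.073, SE 0.14, adjusted p = 0.960). Slc25a3 had 438, 495, 417, 396 and 375 CPM in WT, and 312.9, 367 and 465 CPM at the lowest, median and highest in the other group. More of the Cre+ values lay low, with 2 of 8 above the WT mean, but the ranges overlapped (log2 fold change -0.14, SE 0.11, adjusted p = 0.840).

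The ATP-Mg/phosphate carriers, which adjust the adenine nucleotide pool of the matrix in response to calcium, were represented mainly by Slc25a23 at 32.5 CPM per kb, with Slc25a25 at 1.55 and Slc25a24 at 1.46. Slc25a25 was the member with the smallest unadjusted p. It had 10.998, 11.8, 10.2, 8.75 and 10.8 CPM in WT and a lowest, median and highest value of 9.45, 12.97 and 17.0 CPM in the libraries labelled iFAXLKO. Means were 13.3 ± 2.74 CPM (SD, n = 8) and 10.5 ± 1.13 CPM (SD, n = 5), 6 of 8 Cre+ libraries lay above the WT mean, and the ranges overlapped (log2 fold change 0.34, SE 0.14, unadjusted p = 0.0284, adjusted p = 0.619). The library numbers in the labels were split into a lower and an upper range, a cut chosen for this check at one of several gaps of similar size in the numbers. The difference in mean log2 CPM of Slc25a25 was 0.019 within the lower range (4 libraries labelled iFAXLKO, 2 WT) and 0.57 within the upper range (4 against 3). Slc25a24 had 4.84, 2.91, 5.47, 5.39 and 3.92 CPM in WT and 3.98, 5.35 and 6.60 CPM at the lowest, median and highest in the other group (log2 fold change 0.23, SE 0.16, adjusted p = 0.798), and WT replicate 2 lay below all other libraries. Its difference had the opposite distribution over the number ranges, 0.60 in the lower and -0.012 in the upper. Slc25a23 had a log2 fold change of -0.033 (SE 0.13).

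Among the carriers of citrate, dicarboxylates and oxoglutarate, Slc25a1 exports citrate, from which cytosolic acetyl-CoA for fatty acid synthesis is made. It varied more between libraries than any other carrier above 100 CPM, with 389, 583, 170.3, 217 and 619 CPM in WT and 217, 312 and 404 CPM at the lowest, median and highest in the libraries labelled iFAXLKO. The WT values alone spanned the whole range of the other group and extended beyond it at both ends (311.6 ± 68.5 CPM, SD, n = 8, against 396 ± 205 CPM, SD, n = 5). The fitted log2 fold change of -0.34 (SE 0.28) had an adjusted p of 0.855. Leaving out 1 library at a time gave -0.12 (without WT replicate 5) and -0.16 (without WT replicate 2) to -0.50 (without WT replicate 4) and -0.52 (without WT replicate 3). The difference was -0.65 within the lower number range and 0.11 within the upper. The promoter of Slc25a1 lies at chr16:17928170-17928469, minus strand, with the same motifs in capitals, and is shown for this variation.
Slc25a1: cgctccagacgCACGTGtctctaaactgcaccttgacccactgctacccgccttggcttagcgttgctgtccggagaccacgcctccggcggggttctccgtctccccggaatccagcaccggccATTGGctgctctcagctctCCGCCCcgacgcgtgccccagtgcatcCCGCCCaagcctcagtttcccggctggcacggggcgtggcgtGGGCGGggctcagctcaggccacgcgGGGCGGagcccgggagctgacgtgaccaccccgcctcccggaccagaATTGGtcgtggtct
It held an E-box match, GC boxes at 4 places and a pair of CCAAT matches on the reverse strand, the second of them after the start.

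Since citrate leaving mitochondria is used by ATP citrate lyase (Acly) and the resulting cycle involves malic enzyme (Me1), Slc25a1 was set against 5 enzymes of the citrate-pyruvate shuttle, and Slc25a12 against 4 of the malate-aspartate shuttle. These 9 relations were chosen after the values had been seen, and used log2 CPM over the 13 libraries with the group means removed. Slc25a1 rose with Acly (Pearson r = 0.93, adjusted permutation p = 0.000135; Spearman rho = 0.93, adjusted permutation p = 0.000135) and with Me1 (r = 0.93, adjusted permutation p = 9e-05; rho = 0.93, adjusted permutation p = 0.000135). The unadjusted p of the former with Me1, 1e-05, is the smallest that these permutations can give. With the 2 libraries most distant from the enzyme's median left out, r was 0.86 for Acly and 0.95 for Me1. Within the lower number range (6 libraries) r was 0.78 and 0.84, and within the upper (7 libraries) 0.99 and 0.98. For citrate synthase, Cs, r was 0.65 (adjusted permutation p = 0.0390; rho = 0.64, adjusted permutation p = 0.0480), and 0.59 with the 2 most distant libraries left out. Pyruvate carboxylase, Pcx (r = 0.58, rho = 0.58, adjusted permutation p = 0.0707 and 0.0751), and aconitase, Aco1 (r = 0.33, rho = 0.29, adjusted permutation p = 0.357 and 0.378), did not pass after adjustment. Acly itself ranged from 288.1 CPM in WT replicate 3 to 3058 CPM in WT replicate 5, the libraries with the lowest and the highest Slc25a1. Neither enzyme was called between the groups (Acly log2 fold change -0.47, SE 0.52, adjusted p = 0.904; Me1 -0.22, SE 0.27, adjusted p = 0.918).

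**Figure D3:**
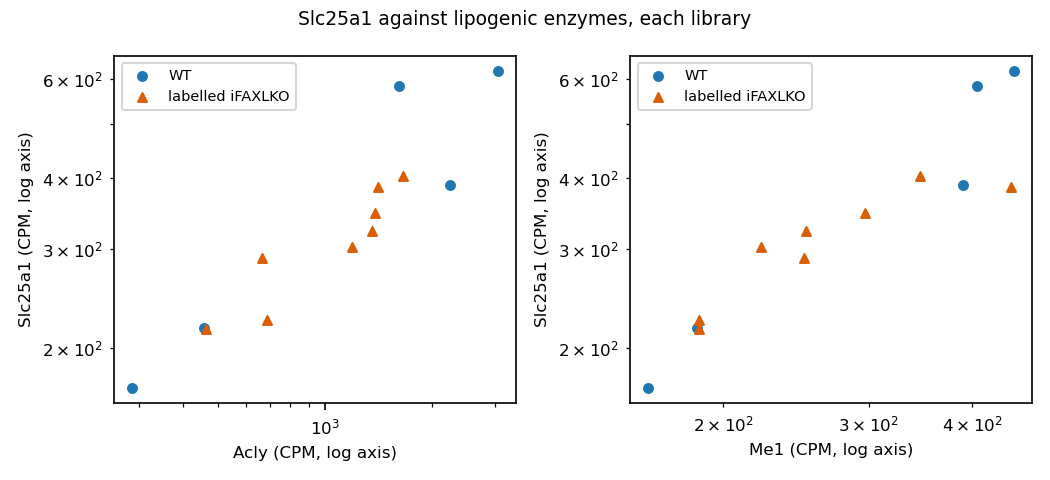
CPM of Slc25a1 against CPM of Acly (left) and Me1 (right), both axes logarithmic, with 1 point per library (blue circles WT, orange triangles labelled iFAXLKO). Slc25a1 runs from 170.3 to 619 CPM along both enzymes, and WT libraries lie at both ends.

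Slc25a10, the dicarboxylate carrier that exchanges malate or succinate for phosphate and is known from white fat and liver, had the largest fold change of the members tested in the reported fit. Its values were 11.4, 18.7, 5.30, 11.04 and 9.74 CPM in WT and 10.3, 18.4 and 24.6 CPM at the lowest, median and highest in the libraries labelled iFAXLKO. Of the 8 Cre+ libraries 7 lay above the WT mean, yet WT replicate 2 at 18.7 CPM lay above the Cre+ median (17.0 ± 5.36 CPM, SD, n = 8, against 11.2 ± 4.84 CPM, SD, n = 5). The fitted log2 fold change of 0.60 (SE 0.28) had an unadjusted p of 0.0513 and an adjusted p of 0.680. With the fibroblast score as a covariate it was 0.22, below the 0.44 of Slc25a25 in the same fit, and leaving out 1 library at a time gave 0.44 (without WT replicate 3) to 0.87 (without WT replicate 2). The difference was 0.013 within the lower number range and 1.10 within the upper. Slc25a11, the oxoglutarate/malate carrier of the malate-aspartate shuttle, had 159, 228, 159, 163 and 163 CPM in WT and 133, 168 and 183 CPM at the lowest, median and highest in the other group. The single high value was WT replicate 2, and the other WT values lay inside the Cre+ range (log2 fold change -0.076, SE 0.10, adjusted p = 0.926).

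Among the amino acid carriers, Slc25a12 was the one that followed skeletal muscle. It encodes the aspartate/glutamate carrier aralar, known as the form of excitable tissues, and its values were 17.3, 8.52, 8.32, 7.26 and 3.58 CPM in WT and 3.70, 6.91 and 22.9 CPM at the lowest, median and highest in the libraries labelled iFAXLKO. The groups had nearly the same mean (9.25 ± 6.56 CPM, SD, n = 8, against 8.99 ± 5.04 CPM, SD, n = 5; log2 fold change 0.036, SE 0.48, adjusted p = 0.994). A muscle score, the mean log2 CPM of the 20 muscle markers, was then fitted with the group in the model. Slc25a12 rose by 0.28 log2 units per unit of the score (SE 0.041, edgeR adjusted p = 0.000431). It was the only member called with a positive slope, 1 of 37, against 1.54% of all genes tested, and 0 members were called with a negative slope, against 0.015%, so the count of members was near that background and the result is one about Slc25a12 alone. The slope stayed between 0.246 and 0.354 when each library was left out in turn, with adjusted p from 0.000349 to 0.00279. In the plot of level against the score, the 3 libraries with the highest Slc25a12 (22.9, 17.3 and 14.9 CPM) were also those with the highest score.

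The promoter of Slc25a12, at chr2:71367706-71368005, minus strand, is shown for comparison with the ADP/ATP carriers.
Slc25a12: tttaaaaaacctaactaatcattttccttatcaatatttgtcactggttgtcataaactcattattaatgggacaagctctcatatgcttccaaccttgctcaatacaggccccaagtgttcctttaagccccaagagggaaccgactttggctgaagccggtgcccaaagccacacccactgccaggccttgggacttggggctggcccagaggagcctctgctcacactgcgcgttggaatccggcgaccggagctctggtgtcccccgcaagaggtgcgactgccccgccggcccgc
None of the listed motifs occurs in this window.

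Slc25a32, which carries folate and FAD, had the next smallest p on the muscle score (slope 0.062, SE 0.019, adjusted p = 0.296). Its values were 52.7, 45.3, 35.9, 38.5 and 43.3 CPM in WT and 32.3, 46.0 and 57.5 CPM at the lowest, median and highest in the libraries labelled iFAXLKO, which enclosed the WT range. Without WT replicate 5 its slope was 0.093 (adjusted p = 0.0210), and limma-voom with sample quality weights called it on all 13 libraries (slope 0.072, adjusted p = 0.0341). Slc25a4 had a slope of 0.058 (SE 0.022, adjusted p = 0.710). The negative slopes of smallest p belonged to Slc25a42 (-0.053, SE 0.027, adjusted p = 0.983), Slc25a37 (-0.037, SE 0.022, adjusted p = 0.983) and Slc25a25 (-0.033, SE 0.024, adjusted p = 0.983), none of them called. Slc25a12 also rose with the mitochondrial aspartate aminotransferase Got2 over libraries (Pearson r = 0.73, adjusted permutation p = 0.0135; Spearman rho = 0.73, adjusted permutation p = 0.0208). With the 2 libraries most distant from the Got2 median left out, r was 0.88, and within the number ranges it was 0.79 and 0.71. Got2 itself had a slope of 0.12 on the muscle score (SE 0.032, adjusted p = 0.0978), and its part in that relation was not tested. The relations with Got1 (r = 0.55, rho = 0.54, adjusted permutation p = 0.0772 and 0.0909), Mdh1 (r = 0.21, rho = 0.35, adjusted permutation p = 0.550 and 0.316) and Mdh2 (r = 0.069, rho = 0.22, adjusted permutation p = 0.825 and 0.470) did not pass.

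**Figure D4:**
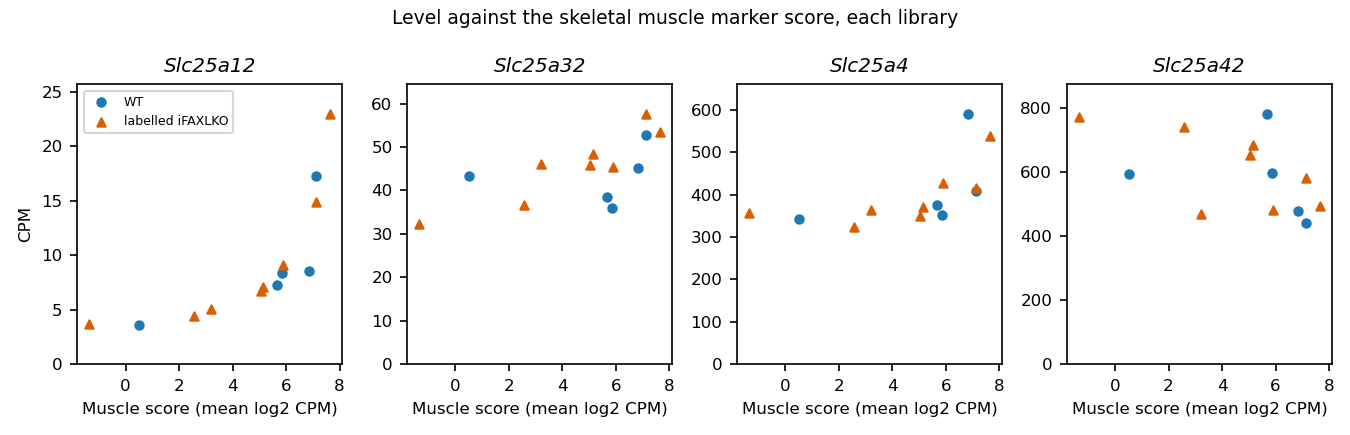
CPM of Slc25a12, Slc25a32, Slc25a4 and Slc25a42 against the skeletal muscle score (mean log2 CPM of 20 markers), with 1 point per library (blue circles WT, orange triangles labelled iFAXLKO) and CPM axes from 0. Slc25a12 climbs along the score from 3.58 to 17.3 CPM in WT and from 3.70 to 22.9 CPM in the libraries labelled iFAXLKO.

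None of the other members grouped with the amino acid carriers and tested was called between the groups. The ornithine carrier Slc25a15, of the urea cycle, had 25.3, 26.0, 28.6, 27.4 and 26.3 CPM in WT and 22.5, 24.4 and 28.4 CPM at the lowest, median and highest in the libraries labelled iFAXLKO (log2 fold change -0.10, SE 0.071, adjusted p = 0.798), and the ranges overlapped. Slc25a38, which brings glycine to the first step of haem synthesis, had 24.4, 28.3, 29.8, 27.2 and 25.0 CPM in WT and 20.5, 24.1 and 29.99 CPM at the lowest, median and highest in the other group. Only 1 of the 8 Cre+ libraries lay above the WT mean, but that library was the highest of all 13 (log2 fold change -0.15, SE 0.096, adjusted p = 0.760). The glutamate carrier Slc25a22 ranged from 115 to 157 CPM over the 13 libraries and the basic amino acid carrier Slc25a29 from 2.82 to 6.27 CPM. Among the genes grouped in this class and above the filter, Slc25a48 was the most variable after Slc25a12, at 11.8 to 42.2 CPM. Its log2 fold change was -0.10 (SE 0.29), and the grouping does not establish its substrate.

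The cofactor carriers include Slc25a51 and Slc25a42, both among the 10 members of highest level. Slc25a51, which imports NAD+, had 645, 518, 601, 595 and 589 CPM in WT and 505, 557 and 684 CPM at the lowest, median and highest in the libraries labelled iFAXLKO. The ranges overlapped throughout (log2 fold change -0.018, SE 0.091, adjusted p = 0.987). Slc25a42, which imports coenzyme A, had 439, 479, 596, 778 and 594 CPM in WT and 468, 617 and 769.7 CPM at the lowest, median and highest in the other group. It spread widely within both groups and its ranges coincided (log2 fold change 0.076, SE 0.16, adjusted p = 0.962).

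Within the same class, several carriers of lower level lay slightly lower in the libraries labelled iFAXLKO without passing the test. The peroxisomal carrier Slc25a17, which takes up coenzyme A, FAD and NAD+, had 109, 131, 116, 101 and 102 CPM in WT and 86.9, 102 and 114 CPM at the lowest, median and highest in the Cre+ group. Only 1 of 8 lay above the WT mean (log2 fold change -0.15, SE 0.087, adjusted p = 0.732). The pyrimidine nucleotide carrier Slc25a36 had 52.3, 43.9, 45.2, 43.1 and 47.6 CPM in WT and 39.5, 41.2 and 46.7 CPM at the lowest, median and highest in the other group. It had the smallest unadjusted p of the negative members (log2 fold change -0.13, SE 0.068, unadjusted p = 0.0699, adjusted p = 0.707), and the groups overlapped. Other members were Slc25a33, a second pyrimidine nucleotide carrier (log2 fold change -0.025), Slc25a16 (-0.087) and Slc25a26, the S-adenosylmethionine carrier (-0.13), at 30.9 to 60.8, 34.8 to 56.8 and 24.3 to 38.2 CPM.

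The iron and glutathione carriers differ widely in level. Slc25a39, the mitochondrial glutathione importer, had 481, 706, 533, 515 and 498 CPM in WT and 461, 525 and 559 CPM at the lowest, median and highest in the libraries labelled iFAXLKO. WT replicate 2 alone lay above the Cre+ range (log2 fold change -0.078, SE 0.096, adjusted p = 0.914). Its paralog Slc25a40 had 7.04, 5.09, 7.35, 7.75 and 7.08 CPM in WT and 6.23, 7.63 and 8.42 CPM at the lowest, median and highest in the other group, and 6 of 8 lay above the WT mean (log2 fold change 0.12, SE 0.11, adjusted p = 0.880). Slc25a37, or mitoferrin 1, which imports iron and is known from erythroid cells, had 19.2, 13.6, 23.1, 20.2 and 20.2 CPM in WT. In the libraries labelled iFAXLKO it had 17.5, 19.8 and 25.9 CPM at the lowest, median and highest (log2 fold change 0.11, SE 0.12, adjusted p = 0.910). Mitoferrin 2, Slc25a28, ranged from 34.4 to 46.9 CPM (log2 fold change -0.079, SE 0.093).

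Slc25a46 stands apart in the family as a protein of the outer membrane, where it acts in mitochondrial dynamics. It had 97.9, 100.6, 101.7, 90.5 and 99.8 CPM in WT and 78.3, 93.1 and 97.9 CPM at the lowest, median and highest in the libraries labelled iFAXLKO. None of the 8 Cre+ libraries lay above the WT mean, and the groups overlapped through WT replicate 4, at 90.5 CPM, and the upper Cre+ libraries (log2 fold change -0.13, SE 0.070, unadjusted p = 0.0815, adjusted p = 0.717). Without WT replicate 4 the 2 groups did not overlap, but the values nearly touched. The highest Cre+ value was 97.88 CPM (iFAXLKO replicate 8) and the lowest remaining WT value 97.90 CPM (WT replicate 1). The share of all genes without overlap was not counted for that fit. The uncoupling-protein-like carriers Slc25a30, Slc25a27 and Slc25a14 had log2 fold changes of 0.080, 0.12 and 0.084, with SE of 0.13, 0.17 and 0.16. The members whose substrates are less settled comprised Slc25a34, Slc25a35, Slc25a45, Slc25a47 and Slc25a53 above the filter. Slc25a34 had 134, 145, 229.6, 194 and 127 CPM in WT and 81.7, 144 and 202 CPM at the lowest, median and highest in the other group (log2 fold change -0.25, SE 0.20, adjusted p = 0.855). Slc25a35 ranged from 138 to 209 CPM, but 31.3% of its exon bases lie under Rangrf on the opposite strand, and since the strand setting of the counting is not given in the sources used here, reads of the 2 genes cannot be told apart. Slc25a45, Slc25a47 and Slc25a53 stayed between 2.51 and 5.77 CPM.

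The 8 members below the filter were Slc25a2, Slc25a13, Slc25a18, Slc25a21, Slc25a31, Slc25a41, Slc25a43 and Slc25a54. Slc25a2, an ornithine carrier, had 0.267 to 0.870 CPM, and the liver form of the aspartate/glutamate carrier, Slc25a13 (citrin), had 0.0588 to 0.337 CPM, at most 8 counts in a library. The glutamate carrier Slc25a18 reached 0.177 CPM, the oxodicarboxylate carrier Slc25a21 0.110 CPM, the testis ADP/ATP carrier Slc25a31 0.0869 CPM, Slc25a43 0.1503 CPM and Slc25a41 0.0382 CPM. Slc25a54 had 0 counts in all 13 libraries. Slc25a2 had 7 to 24 counts in every library, above the limit of 3 counts, whereas the other 7 lay at or near it in some or all libraries. These members were not tested in the reported fit; without the filter, 44 members were tested and 0 were called (smallest adjusted p = 0.736).

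Pairs of related carriers, not all with an established common substrate, were compared within each library, so that library composition is shared by both genes. Slc25a5 exceeded Slc25a4 in 13 of 13 libraries; the ratio of Slc25a4 to Slc25a5 per kb was 0.550 to 0.905. Their log2 ratio was -0.61 ± 0.23 (SD, n = 8) in the libraries labelled iFAXLKO and -0.57 ± 0.19 (SD, n = 5) in WT, a difference below the spread. The 2 proteins are identical at 89.6% of aligned residues and at 78.6% of coding bases. The processed pseudogene Slc25a5-ps had at most 6 counts in a library. For 9 other pairs 1 gene was the higher in every library. Slc25a12 exceeded Slc25a13, Slc25a22 exceeded Slc25a18, Slc25a39 exceeded Slc25a40 by 171 to 416 times, and Slc25a15 exceeded Slc25a2 by 7.17 to 22.4 times. Mitoferrin 2 exceeded mitoferrin 1 (Slc25a28 over Slc25a37) by 2.39 to 5.50 times, Slc25a33 exceeded Slc25a36 by 3.17 to 6.82 times, and Slc25a30 exceeded Slc25a14 by 2.12 to 4.81 times. Slc25a42 exceeded Slc25a16 and Slc25a23 exceeded Slc25a24, with log2 ratios of the lower to the higher gene between -4.04 and -2.63 and between -5.29 and -3.70. Only Slc25a24 and Slc25a25 had no fixed order, Slc25a24 being higher in 6 of 13 libraries. The difference of the group means of the log2 ratio was 0.30 in size for Slc25a24 over Slc25a23, with SD of 0.49 and 0.50 in the groups, and smaller for each of the other pairs.

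**Figure D5:**
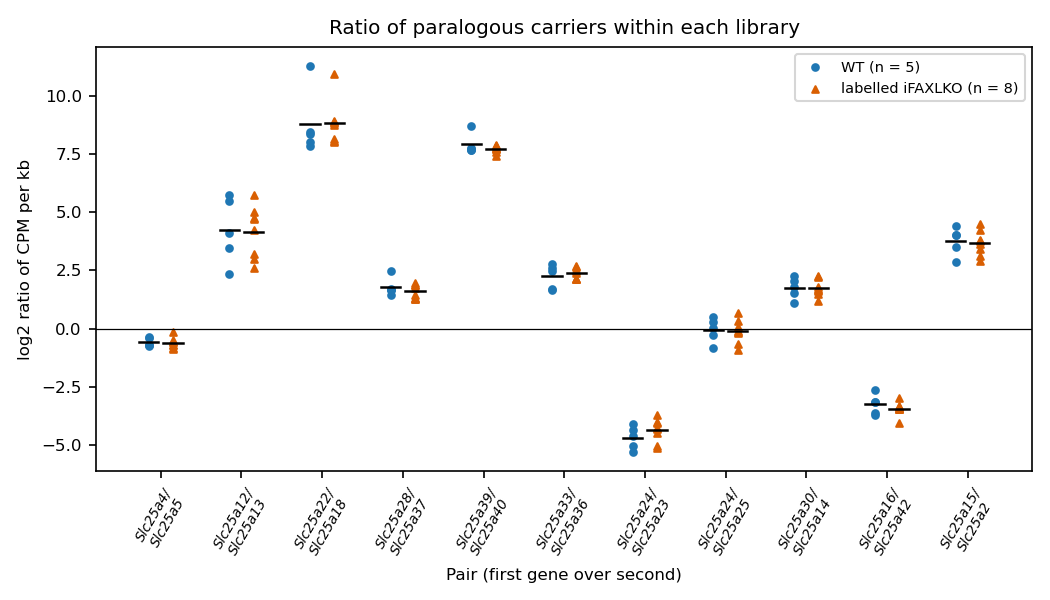
Log2 ratio of CPM per kb (first gene over second) of 11 pairs of related carriers, 1 point per library (blue circles WT, n = 5; orange triangles labelled iFAXLKO, n = 8) with group means as bars. All pairs except Slc25a24/Slc25a25 keep to 1 side of 0, and the group means of each pair lie within the spread of its points.

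Of the 45 members, 35 had a promoter in the RefSeq table (27025 genes). A GC box match was found in 29 of these 35 (82.9%) against 38.2% of all promoters, and a CCAAT match in 19 (54.3%) against 41.1%. The ETS motif was found in 6 (17.1% against 9.93%), the E-box in 7 (against 8.09%), the NRF1 core in 2 (5.71% against 3.05%), the TATAAA motif in 2 (5.71% against 15.7%) and the ERR element in 0 (against 0.466%). The median GC content of the member promoters was 60.3%, against 52.8% of all promoters, and a higher GC content by itself changes how often such letters occur. The matches are a description of these windows.

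Genes that work beside the carriers were followed from lists, and none was called. Of the other genes of the superfamily and its relatives, 5 of 5 were tested, with 2 positive and 3 negative; Ucp1 averaged 5599 CPM (SD 1121, n = 8) in the libraries labelled iFAXLKO and 6367 CPM (SD 914, n = 5) in WT, a log2 difference of -0.19 (SE 0.14, adjusted p = 0.835), and that of Ucp2 was 0.26 (SE 0.14, adjusted p = 0.724). Of 16 other inner membrane transporters and channels tested, 12 were negative; among them was Sfxn5, a sideroflexin (log2 fold change -0.21, SE 0.084, unadjusted p = 0.0255, adjusted p = 0.609). Of all 13360 genes tested 7158 were negative, the background for the sign counts of these lists. The import route of the carriers, through TOM70 and the small TIM chaperones to TIM22, had 14 of 15 genes negative. Its median log2 fold change was -0.11, against -0.012 for all genes tested. Medians did not always share the fitted sign in this list. Timm22 and Tomm40 had medians of 29.2 and 93.6 CPM in the libraries labelled iFAXLKO, against 26.9 and 88.5 CPM in WT. The Cre+ median was also the higher for Timm9 (37.9 against 37.0 CPM), Timm10 (39.9 against 38.5), Timm8a1 (3.36 against 3.09) and Tomm22 (84.0 against 80.4). For the other genes with a negative fit it was the lower, among them Tomm70a (78.9 against 83.4 CPM). Only the cytosolic chaperones Hspa8 (-0.39, SE 0.15, adjusted p = 0.554) and Hsp90ab1 (-0.29, SE 0.11, adjusted p = 0.535) had an unadjusted p under 0.05 in that list. All 3 outer membrane channels Vdac1, Vdac2 and Vdac3 were negative, between -0.12 and -0.054. Of the 14 genes of haem and iron-sulfur synthesis, which use the iron and glycine that carriers bring in, 12 were negative, and the lowest was Alas1 at -0.12 (SE 0.29). The 6 shuttle enzymes of malate-aspartate and glycerol phosphate had 5 negative values and the 5 enzymes of the citrate-pyruvate shuttle 4.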

How the data were processed

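RNA of iBAT from 13 mice was sequenced, 1 library each, 8 labelled iFAXLKO and 5 WT. The authors deposited unnormalized counts of reads per Ensembl gene. Their processing notes name bcl2fastq 2.20, fastp 0.20.0, STAR 2.7.4a, DESeq2 and GRCm38.p6, whereas the methods of the study describe another trimmer and aligner and depletion of ribosomal RNA, and the labels give polyA RNA. Counting tool and strand setting are not given in the sources used here.

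Genes above 1 CPM in at least 5 libraries (13360) were scaled with TMM and tested with edgeR 4.0.16 (R 4.3.3; quasi-likelihood, robust, 2-sided), with Benjamini-Hochberg adjustment over all genes tested. The skeletal muscle fit used the mean log2 CPM of 20 markers beside the group. Relations over libraries used 100000 permutations, 2-sided, adjusted over the 9 relations. Counting floors cover counting error only, and p-values measure the spread between these libraries. Nothing in the labels gives the animals' litter or pooling. Alternatives used DESeq2 1.42.0, limma 3.58.1, other scalings, filters, covariates and leaving out libraries. Scripts were tested on simulated data. Each pair of libraries within a group differed by at least 15.3 chi-square units per degree of freedom, so no library was counted as a copy. Proteins were translated from GENCODE M21 coding sequences, and promoters taken from RefSeq. Members, gene lists and substrate classes were chosen with earlier results of these data known. Values by library were given for the 10 members of highest level, for the 5 positive and the 5 negative members of smallest p, and for the 3 of smallest p on the muscle score in each direction; both genes of each pair were named. Results of 2 genes on these lists are not reported here.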

Additional observations from a re-analysis of the deposited data

Results flagged for a closer look

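In groups of 5 and of 8 libraries, 6 of 74 sets of values had 1 library that stood farther from its nearest neighbour than Dixon's 95% limit, and chance gives such a flag in about 1 of 20 groups. In WT replicate 2 this was the case for 5 members: Slc25a4 (589 CPM, next highest 408), Slc25a11 (228 CPM, next highest 163), Slc25a26 (38.2 CPM, next highest 28.4) and Slc25a39 (706 CPM, next highest 533) were high, and Slc25a40 was low (5.09 CPM, next lowest 7.04). That library had the lowest TMM factor, 0.897, and the highest summed level of the family, 6201 CPM. Slc25a48 was high in the library labelled iFAXLKO replicate 6, at 42.2 CPM, where the next highest was 26.7 CPM.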

How the results depend on the processing

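No alternative called a member between the groups, and the Slc25a12 slope was called under all of them. Unadjusted p-values under 0.05 numbered 1 in the reported fit, 2 with DESeq2, RLE or upper quartile factors, trimmed library sizes (leaving out the 10 most abundant and the mitochondrially encoded genes), protein-coding genes alone or the muscle covariate, 3 with limma-voom, 4 with the replicate block and 0 with the fibroblast covariate. Over all 13360 genes tested these p-values numbered 986 in the reported fit, 1109 with DESeq2, 983 with RLE and 962 with upper quartile factors. They numbered 978 with trimmed library sizes, 984 with the muscle covariate, 1523 with limma-voom, 1519 with the block and 198 with the fibroblast covariate. Among protein-coding genes alone they were 907 of 12349. The counts of members are a description beside these backgrounds. The median log2 fold change of the members was -0.0015 with limma-voom, -0.018 with the block and -0.012 with the fibroblast covariate. limma-voom called 2 members on the muscle score, adding Slc25a32. Signs turned with limma-voom for Slc25a5 (0.024), Slc25a39 (0.022), Slc25a4 (0.061), Slc25a1 (0.086), Slc25a42 (-0.062), Slc25a11 (0.036), Slc25a37 (-0.0015), Slc25a28 (0.013) and Slc25a30 (-0.021), and with upper quartile factors for Slc25a51 (0.0073). They turned with the replicate block for Slc25a39 (0.0015), Slc25a4 (0.0064), Slc25a51 (0.011), Slc25a42 (-0.056), Slc25a28 (0.022) and Slc25a33 (0.015). With the fibroblast covariate they turned for Slc25a51 (0.11), Slc25a40 (-0.059), Slc25a46 (0.070), Slc25a15 (0.030), Slc25a12 (-0.13), Slc25a22 (0.0080), Slc25a30 (-0.15), Slc25a16 (0.00044) and Slc25a23 (0.097). The cause was not tested. With the block, Slc25a25 was 0.18 (unadjusted p = 0.245). Replicate numbers share only a number: correlations of same-numbered libraries were 0.39, 0.42, 0.19, 0.18 and -0.61.

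Leaving out 1 library at a time gave 0 (without iFAXLKO replicate 8) to 3 (without WT replicate 2) members with an unadjusted p under 0.05. Over all genes tested those fits gave 1044 of 13326 and 1594 of 13338. The median was -0.084 to 0.0040, and 1 to 2 members were called on the muscle score. From 0 to 1 members had no overlap (Slc25a46, without WT replicate 4), and the share of all genes in these fits was not counted. Ranges crossed 0 for Slc25a51 (-0.061 to 0.018), Slc25a42 (-0.0074 to 0.21), Slc25a5 (-0.075 to 0.054), Slc25a39 (-0.12 to 0.031), Slc25a4 (-0.15 to 0.090), Slc25a11 (-0.11 to 0.039), Slc25a33 (-0.13 to 0.13), Slc25a12 (-0.31 to 0.42) and Slc25a23 (-0.10 to 0.023).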
